A study of Mus musculus with 14 samples.

Results

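The choroid plexus epithelial genes Ttr, Folr1, Kl, Clic6, Aqp1, Otx2, Calml4, Sostdc1, Prlr and Foxj1 were followed in RNA-SEQ of whole brains from newborn mice. They were chosen by symbol from the gene names deposited with the counts, and all 10 were present among the 17927 genes of the count table. The study asked which mRNAs change when Capn15, an intracellular protease of the small optic lobe family of calpains, is lost. The brains, 7 of WT and 7 of Capn15 KO genotype, came at P2 from 6 litters of mice. The lines were made on C57BL/6J, and the methods name a Capn15 allele with a lacZ-Neo cassette that was described elsewhere. The mice were untreated and of both sexes, with 2 females and 5 males among the WT and 4 females and 3 males among the Capn15 KO. Each Capn15 KO brain shared its replicate number with a WT brain of its own litter, which gave 7 pairs. Litter B held pairs 2 and 3, and within its 2 brains of each genotype the match rests on the numbers alone, so pair counts are also given with the other match or by litter. The labels name neurons as the cell type and brain as the tissue, and the protocol describes whole brains that were frozen after dissection.

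The choroid plexus is a sheet of epithelium over a vascular core that hangs into the brain ventricles and secretes the cerebrospinal fluid. Its epithelial cells form the barrier between blood and this fluid, carry hormones and vitamins across it, and drive water and ions into the ventricle. In whole-brain RNA these cells are a small part of the tissue, so that fewer choroid plexus cells and less RNA per cell cannot be told apart.

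Capn15 itself was measured first. The lowest, median and highest WT values of Capn15 were 18.7, 26.2 and 27.3 CPM (counts scaled to 1000000 per library, with TMM factors), and those of the Capn15 KO were 12.2, 13.9 and 20.2 CPM. Capn15 was lower in the Capn15 KO in 6 of 7 pairs, to 44.6% to 58.2% of the WT littermate, and in litter F the library labelled Capn15 KO held 107.5% of the library labelled WT. The fitted log2 fold change of Capn15 was -0.81 (SE 0.118, FDR = 0.0747 by edgeR's quasi-likelihood test). Because the labels of litter F go against Capn15, results for the 10 genes are also given without that litter. Total counts lay between 37620954 and 70910163 per library.

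Ttr mRNA was lower in the brain labelled Capn15 KO than in the one labelled WT in all 7 pairs, litter F among them, and the fitted level in Capn15 KO was 0.800 of that in WT. The fitted share of the WT level was 0.823 for Calml4, 0.832 for Clic6 and 0.844 for Aqp1, and between 0.892 and 0.948 for Folr1, Kl, Otx2 and Sostdc1. Foxj1 was at 1.05 and Prlr at 1.15 of WT. Of the 10 genes, 8 had a log2 fold change below 0, beside 48.6% of all genes, and their median was -0.15 beside 0.0015 over all genes. None of the 10 reached an FDR under 0.05 in edgeR's quasi-likelihood test, in which 0.00558% of all genes did. At an unadjusted p under 0.05 in the same fit, 6 of the 10 were lower, beside 2.26% of all genes, and 1 was higher, beside 2.88%. Without litter F these counts were 5 lower and 0 higher, and the median was again -0.15. The likelihood ratio test of edgeR called Ttr among the 10 at an FDR under 0.05, beside 0.145% of all genes called lower. DESeq2 also called Ttr, beside 0.0821% called lower of the 15841 genes to which it gave an adjusted p, and limma-voom called none of the 10. The quasi-likelihood p-values over all 14 brains are set against the spread that is left after litter, sex and genotype are fitted. The other tests estimate this spread in other ways.

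**Figure D1:**
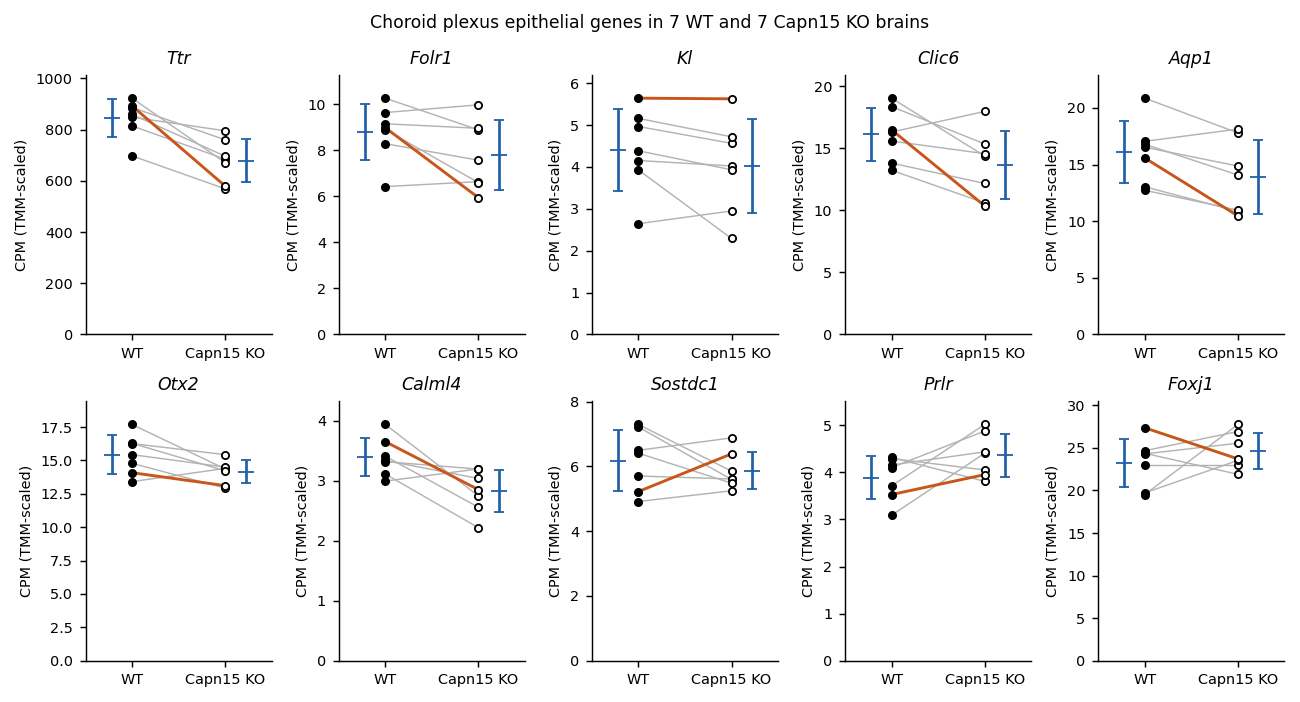
CPM scaled with TMM factors (vertical axes, from 0) of each gene in 7 WT (filled) and 7 Capn15 KO (open) brains, with lines joining the pairs, litter F in orange, and blue bars for the mean ± SD of 7. Ttr is lower in the Capn15 KO along all 7 lines, with means of 846 and 679.5 CPM, while Prlr is higher along 5 of 7.

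Ttr encodes transthyretin, which carries thyroxine and, with retinol binding protein, retinol. Its gene lies on chromosome 18 from 20665280 to 20674321 of GRCm38 and has 4 exons. In the 7 WT brains the Ttr level was 814.7, 859.4, 848.8, 886.5, 697.5, 923.0 and 892.6 CPM for replicates 1 to 7. In the 7 Capn15 KO brains it was 684.8, 696.2, 795.6, 760.4, 568.9, 671.0 and 579.7 CPM in the same order. The groups overlapped through the WT brain of litter D, at 697.5 CPM: 5 Capn15 KO brains lay below it, and the other 6 WT brains lay above the highest Capn15 KO brain. Mean Ttr was 846 ± 74.1 CPM (SD, n = 7) in WT and 679.5 ± 84.2 CPM (SD, n = 7) in Capn15 KO, and the fitted log2 fold change was -0.32 (SE 0.0513, FDR = 0.0942 by edgeR). A two-sided exact permutation test over the 14 brains gave p = 0.0035. A two-sided exact sign-flip test over the 7 pairs gave p = 0.0156, the smallest that 7 pairs allow. Pairs 2 and 3 share litter B, and over the 6 litters the exact sign-flip test gave p = 0.0312 for Ttr. Being lower in 7 of 7 pairs held for 0.597% of all genes, and for 1 of these 10. With the other match in litter B it held for 4 of the 10, Ttr, Kl, Clic6 and Calml4, beside 0.708% of all genes. With litter B taken by its means, 5 of the 10 (these and Aqp1) were lower in 6 of 6 litters, beside 1.43% of all genes. The value labelled Capn15 KO ranged from 93.7% of its littermate in pair 3 to 64.9% in pair 7. Pair 7 is litter F, and without it the log2 fold change of Ttr was -0.27 (SE 0.0418, FDR = 0.0486 by edgeR), with an exact permutation p of 0.0130 and an exact sign-flip p of 0.0312, the smallest for 6 pairs. When litter was left out of the model, the FDR of Ttr was 1.0 by edgeR, both with genotype alone and with sex beside it.

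Folr1 encodes the folate receptor alpha, through which the choroid plexus passes folate into the cerebrospinal fluid. It lies on chromosome 7 from 101858331 to 101870788 and overlaps Anapc15 on the other strand. Folr1 was 6.42, 8.98 and 10.3 CPM at the lowest, median and highest of the WT brains, and 5.94, 7.57 and 9.97 CPM in the Capn15 KO. The groups overlapped over nearly the whole range, and 5 of 7 pairs were lower in the Capn15 KO (6 of 7 with the other match in litter B). The fitted log2 fold change of Folr1 was -0.17 (SE 0.0768, unadjusted p = 0.0495 and FDR = 0.969 by edgeR). Pairs 6 and 7 held the lowest shares in the library labelled Capn15 KO, 74.1% and 66.2% of the littermate, and without litter F the log2 fold change was -0.09 with an unadjusted p of 0.206 by edgeR.

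Aqp1 and Clic6 belong to the water and ion side of secretion: Aqp1 is the water channel of the apical membrane, and Clic6 is an intracellular chloride channel family protein. Aqp1 lies on chromosome 6 from 55336432 to 55348555, and Clic6 on chromosome 16 from 92485736 to 92541243, where 2410124H12Rik overlaps it on the same strand. The 250 bases before a RefSeq start of Aqp1 on GRCm38.p6, at chr6:55336049-55336298 on the plus strand, are shown as the upstream sequence of the gene with the lowest FDR between litters. They hold neither motif searched, the OTX core TAATCC or the forkhead core GTAAACA, on either strand.
Aqp1: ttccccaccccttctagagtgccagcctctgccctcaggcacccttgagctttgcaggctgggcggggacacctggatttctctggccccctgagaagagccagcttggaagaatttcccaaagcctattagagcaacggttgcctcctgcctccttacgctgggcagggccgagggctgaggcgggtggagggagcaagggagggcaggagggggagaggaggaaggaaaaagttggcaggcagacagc

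Aqp1 was 12.7, 16.5 and 20.9 CPM at the lowest, median and highest of the WT brains and 10.5, 14.1 and 18.1 CPM in the Capn15 KO, so that the groups overlapped widely. Within litters, Aqp1 was lower in 6 of 7 Capn15 KO brains than in the WT littermate, and pair 3 was the exception at 106.3%. The fitted log2 fold change of Aqp1 was -0.25 (SE 0.0632, unadjusted p = 0.0017 and FDR = 0.466 by edgeR), and the exact sign-flip test over pairs gave p = 0.0313 while the exact permutation test without pairing gave p = 0.171. Clic6 was 13.2, 16.3 and 19.0 CPM at the lowest, median and highest of the WT brains and 10.4, 14.4 and 18.0 CPM in the Capn15 KO. It was lower in the same 6 pairs as Aqp1, and with the other match in litter B in 7 of 7 where Aqp1 was again lower in 6, with a log2 fold change of -0.27 (SE 0.0752, unadjusted p = 0.00342 and FDR = 0.567 by edgeR). For both genes the widest gap was in litter F, where the library labelled Capn15 KO held 67.2% of the Aqp1 level and 62.8% of the Clic6 level of the library labelled WT. Without litter F the log2 fold changes were -0.19 for Aqp1 and -0.19 for Clic6, with unadjusted p of 0.00567 and 0.0113 by edgeR, and the exact sign-flip p over 6 pairs was 0.0625 and 0.0938.

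Calml4 encodes a calmodulin-like protein. It lies on chromosome 9 from 62858080 to 62875921, with 5 exons, and overlaps Gm10653 on the other strand. The 226 bases up to its start, at chr9:62857854-62858079 on the plus strand, are shown because Calml4 had, after Ttr, the smallest exact permutation p without pairing. They hold neither motif.
Calml4: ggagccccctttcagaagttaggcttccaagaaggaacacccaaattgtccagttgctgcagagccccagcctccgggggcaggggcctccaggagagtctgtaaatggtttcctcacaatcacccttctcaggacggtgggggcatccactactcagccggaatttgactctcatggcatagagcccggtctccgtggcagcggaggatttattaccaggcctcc

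Calml4 was 3.32, 2.99, 3.41, 3.34, 3.11, 3.94 and 3.65 CPM in WT replicates 1 to 7 and 3.19, 3.20, 2.56, 3.04, 2.22, 2.75 and 2.85 CPM in the Capn15 KO. The lowest WT brain lay within the Capn15 KO range, 4 Capn15 KO brains lay below it, and 5 WT brains lay above the highest Capn15 KO brain. The fitted log2 fold change of Calml4 was -0.28 (SE 0.0924, unadjusted p = 0.00895 and FDR = 0.752 by edgeR), and -0.27 without litter F. The exact permutation test gave p = 0.00758 and the exact sign-flip test p = 0.0469, with 6 of 7 pairs lower (7 of 7 with the other match in litter B). Calml4 counts were 96 to 209 per library, fewer than those of Ttr, at 22149 to 51091. Among the 10 genes, the exact permutation test was under 0.05 for Ttr and Calml4, beside 0.92% of all genes that were lower with such a p. The exact sign-flip test was under 0.05 for Ttr, Clic6, Aqp1 and Calml4, beside 1.77% of all genes, and neither test was adjusted for the number of genes. With the other match in litter B, and also over 6 litters, Kl joined these 4. Its exact sign-flip p was 0.0156 with the other match and 0.0312 over litters, against 0.141 as numbered. Without litter F, the exact permutation test was under 0.05 for Ttr and Calml4 (p = 0.0281 for Calml4), beside 0.803% of all genes, and the exact sign-flip test for Ttr alone, beside 1.03%.

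**Figure D2:**
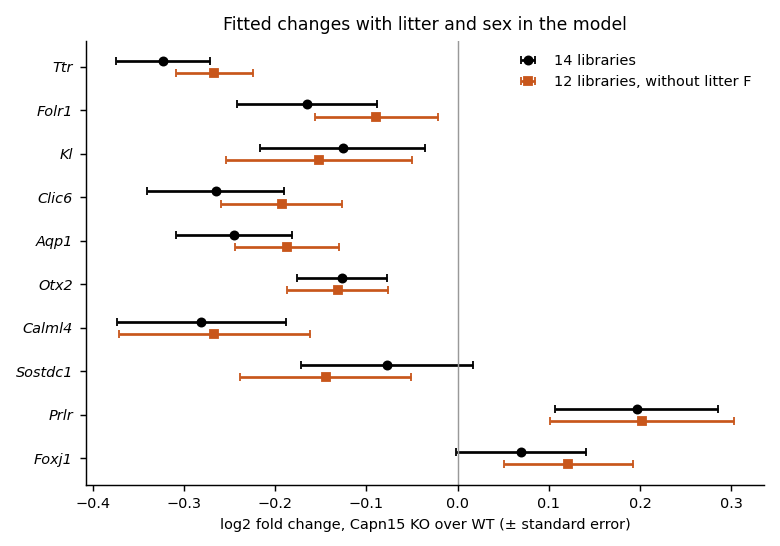
Fitted log2 fold change of each gene, Capn15 KO over WT (horizontal axis), with its standard error, from all 14 libraries (black) and from 12 libraries without litter F (orange). Ttr moves from -0.32 to -0.27 and Folr1 from -0.17 to -0.09 when litter F is left out, while Prlr stays at 0.20.

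Otx2 and Foxj1 are the transcription factors of the group: Otx2 is needed to form and keep the choroid plexus, and Foxj1 drives the genes of motile cilia, also in ependyma. Otx2 lies on chromosome 14 from 48657677 to 48673819 and overlaps Otx2os1 on the other strand and Gm49154 on the same strand. A 28-base stretch at chr14:48665304-48665331 on the minus strand lies upstream of an internal RefSeq start of Otx2 and inside the gene. For this start 0 bases of upstream sequence were kept. The stretch is shown because it holds the OTX core, whose reverse complement is in capitals.
Otx2: gtgtgcccctcGGATTAtctcgttagtt

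The OTX core was found in 1 of 10 windows of 250 bases before starts of the 5 genes with an entry in the RefSeq promoter table, Kl, Aqp1, Calml4, Otx2 and Prlr, beside 6.25% of 32851 windows of the whole table. Otx2 mRNA was 13.4, 15.4 and 17.7 CPM at the lowest, median and highest of the WT brains and 12.9, 14.4 and 15.4 CPM in the Capn15 KO. The groups overlapped, and 6 of 7 pairs were lower in the Capn15 KO, with pair 1 the exception. The fitted log2 fold change of Otx2 was -0.13 (SE 0.0492, unadjusted p = 0.0219 and FDR = 0.876 by edgeR). Foxj1, on chromosome 11 from 116330704 to 116335399, was 19.5, 24.3 and 27.4 CPM in WT and 21.9, 23.7 and 27.7 CPM in the Capn15 KO. Its log2 fold change was 0.07 (SE 0.0716, FDR = 1.0 by edgeR), and it was lower in 3 of 7 pairs.

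Prlr and Kl tie the epithelium to hormones: Prlr is the prolactin receptor, and Kl encodes Klotho, a co-receptor for fibroblast growth factor 23. Prlr lies on chromosome 15 from 10177238 to 10349180, overlaps Gm21973 on the same strand, and has starts far apart. The 250 bases before an internal RefSeq start, at chr15:10223656-10223905 on the plus strand, are shown because they hold the forkhead core, whose reverse complement is in capitals. This motif was in 1 of the 10 windows, beside 3.17% of the whole table.
Prlr: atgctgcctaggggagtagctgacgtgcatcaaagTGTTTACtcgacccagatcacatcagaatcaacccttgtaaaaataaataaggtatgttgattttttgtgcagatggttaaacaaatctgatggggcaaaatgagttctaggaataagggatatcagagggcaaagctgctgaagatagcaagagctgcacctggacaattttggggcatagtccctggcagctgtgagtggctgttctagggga

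Prlr was 4.29, 4.32, 4.10, 3.09, 4.16, 3.71 and 3.53 CPM in WT replicates 1 to 7 and 4.05, 3.81, 4.88, 4.41, 4.44, 5.02 and 3.95 CPM in the Capn15 KO. It was higher in the Capn15 KO in 5 of 7 pairs, and 4 Capn15 KO brains lay above the highest WT brain. The fitted log2 fold change of Prlr was 0.20 (SE 0.0896, unadjusted p = 0.0463 and FDR = 0.959 by edgeR), and without litter F it was 0.20 with an unadjusted p of 0.0640. Kl lies on chromosome 5 from 150952607 to 150993817. It was 2.65, 4.39 and 5.64 CPM at the lowest, median and highest of the WT brains and 2.29, 4.02 and 5.63 CPM in the Capn15 KO, and the groups overlapped over nearly their whole range. Its log2 fold change was -0.13 (SE 0.0901, FDR = 1.0 by edgeR); 6 of 7 pairs were lower, with differences on the log2 scale of 0.15 in pair 2 and -0.77 in pair 3, both in litter B. With the other match these became -0.41 and -0.20, so that 7 of 7 were lower, and the mean of litter B was -0.31 in either case.

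Sostdc1 encodes a secreted antagonist of BMP and Wnt signals and lies on chromosome 12 from 36314139 to 36318452. It was 4.92, 6.41 and 7.29 CPM at the lowest, median and highest of the WT brains and 5.25, 5.61 and 6.88 CPM in the Capn15 KO. All Capn15 KO brains lay within the WT range, and 4 of 7 pairs were lower. Its log2 fold change was -0.08 (SE 0.0941, FDR = 1.0 by edgeR), and it was 0.014 when either brain of pair 4 was left out. Without litter F the log2 fold changes of Sostdc1, Kl, Otx2 and Foxj1 were -0.14 (SE 0.0937), -0.15 (SE 0.102), -0.13 (SE 0.0553) and 0.12 (SE 0.0705).

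**Figure D3:**
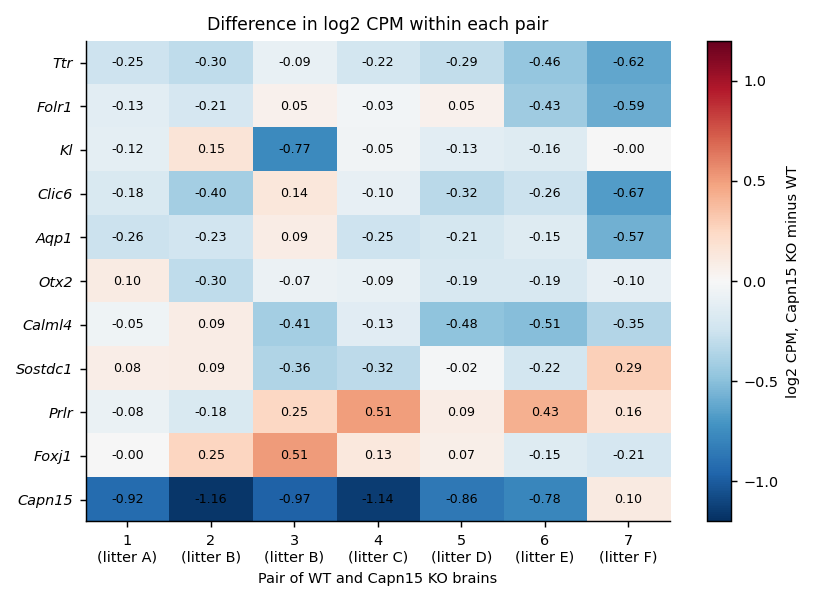
Difference in log2 CPM, Capn15 KO minus WT, of each gene (rows) in each of the 7 pairs (columns, with the litter), and of Capn15 in the bottom row. Ttr is below 0 in all 7 columns, and the lowest values of Ttr, Folr1, Clic6 and Aqp1 stand in pair 7, where Capn15 is at 0.10.

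Between 5 and 9 of the 10 genes were lower in the Capn15 KO in each pair, with 5 in pair 3 and 9 in pair 6 (8 and 7 in litter B with the other match), while 48.1% to 51.1% of all genes were lower. The lowest within-pair differences of Ttr, Folr1, Clic6 and Aqp1 all came from litter F, the litter in which Capn15 was not lower. Litter F was also the litter whose 2 brains were both male, whereas the other 6 pairs set a female beside a male. The genotype by sex term had an unadjusted p under 0.05 for 4 of the 10, Ttr, Folr1, Clic6 and Aqp1, beside 6.85% of all genes, but none had an FDR under 0.05 by edgeR (0.494 for Ttr, the lowest of the 4). For Capn15 the same term was -2.16 on the log2 scale, with an FDR of 0.0475 by edgeR. The term and litter F cannot be told apart, since without that litter the term could not be fitted.

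Several of these genes also differed between litters. An FDR under 0.05 between litters, by edgeR's quasi-likelihood test with genotype and sex in the model, was reached by 5 of 10 genes, beside 29.6% of all genes: Ttr (FDR = 0.0361), Folr1 (0.0195), Kl (0.00323), Clic6 (0.0208) and Aqp1 (0.000972). Mean Aqp1 ran from 11.9 CPM in litter D to 18.5 CPM in litter B, a ratio of 1.56, and Folr1 and Clic6 were also lowest in litter D and highest in litter B. Kl ran the other way, from 2.95 CPM in litter B to 5.64 CPM in litter F, a ratio of 1.91. Foxj1 had the smallest ratio, 1.14 between litters B and C. Without litter F, the same 5 genes had an FDR under 0.05 between litters, from 0.000211 for Aqp1 to 0.00734 for Kl, beside 27.5% of all genes. Between females and males, 0 of the 10 genes had an FDR under 0.05 by edgeR, beside 0.0669% of all genes, and 0 had an unadjusted p under 0.05, with or without litter F.

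Across the 14 brains, not taking litters into account, some of the genes varied together and Kl varied the other way. After the genotype means were subtracted, 12 of the 45 pairs of genes had adjusted p under 0.05 for both Pearson's r and Spearman's rho (100000 permutations of brains within genotype). Of these, 8 were positive, among Ttr, Folr1, Clic6, Aqp1 and Otx2, and 4 were negative, between Kl and Folr1, Clic6, Aqp1 or Otx2. Clic6 and Aqp1 had r = 0.90 (permutation p = 0.00013, adjusted 0.00292) and rho = 0.85 (p = 0.00073, adjusted 0.0164), and r = 0.86 without the 2 brains farthest from the median. Kl and Aqp1 had r = -0.90 (permutation p = 4e-05, adjusted 0.0018) and rho = -0.93 (p = 1e-05, the smallest these permutations give, adjusted 0.00045), and r = -0.86 without the 2 farthest. Ttr and Folr1 had r = 0.87 (permutation p = 0.00043, adjusted 0.00387) and rho = 0.80 (p = 0.0021, adjusted 0.0236), and r = 0.82 without the 2 farthest. Without litter F the sign was kept in all 12, with r of at least 0.66 in size. Calml4, Sostdc1, Prlr and Foxj1 were in none of the 12. Brains of a litter are not independent, so the relations were computed again on the 7 within-pair differences. The sign was the same in 11 of the 12, but 0 of the 45 passed after adjustment, and 3 of the 12 had an unadjusted exact permutation p under 0.05: Ttr with Folr1 (r = 0.93, p = 0.00377), Ttr with Clic6 (r = 0.89, p = 0.0127) and Clic6 with Aqp1 (r = 0.88, p = 0.0335). Over the 6 pairs outside litter F these 3 values of r were 0.84, 0.75 and 0.74. With the other match in litter B they were 0.90, 0.90 and 0.71, the sign was the same in 9 of the 12, and again 0 of the 45 passed after adjustment. Aqp1 and Otx2 had r = 0.75 across brains and -0.04 across pair differences. Otx2 had r = 0.22 with Ttr, 0.14 with Folr1 and 0.33 with Clic6 across pair differences.

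**Figure D4:**
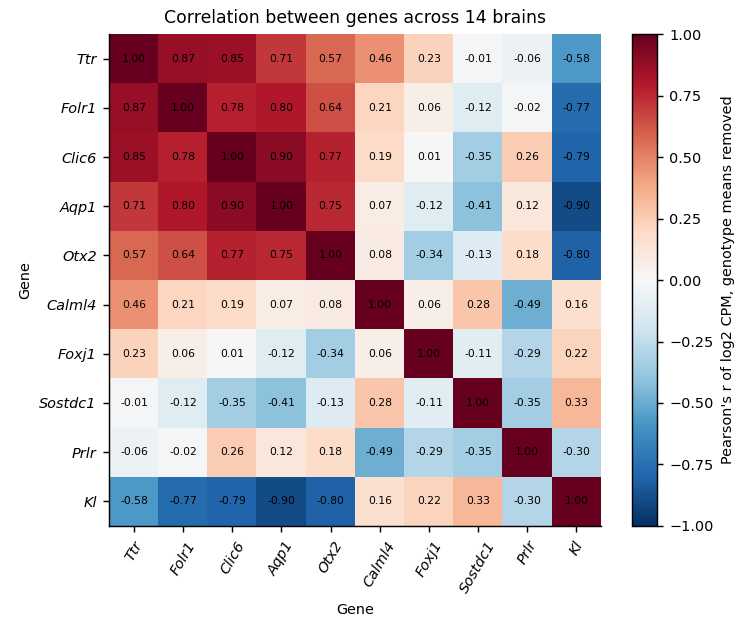
Pearson's r of log2 CPM between each pair of genes (rows and columns) across 14 brains, with genotype means subtracted. Ttr, Folr1, Clic6, Aqp1 and Otx2 form a block of positive values up to 0.90, and Kl is negative with each of them, down to -0.90.

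Per kilobase of annotated exons, the WT level was 713 ± 62.5 CPM per kb for Ttr (SD, n = 7), far above the other genes. Foxj1 followed at 8.88 ± 1.07 CPM per kb and Aqp1 at 6.12 ± 1.05 CPM per kb. Clic6 (4.12 ± 0.549 CPM per kb), Folr1 (3.83 ± 0.530), Otx2 (3.65 ± 0.347) and Sostdc1 (3.47 ± 0.523) came next, and each differed from its neighbour in this order by less than the SD. Calml4 was at 0.932 ± 0.0876, Kl at 0.473 ± 0.105 and Prlr at 0.253 ± 0.0299 CPM per kb. The length joins all annotated exons, 15.3 kb for Prlr and 9.33 kb for Kl, and a long exon that is rarely used lowers the value. The 9 genes other than Ttr summed to 89.6 to 102.9 CPM in WT and 82.4 to 104.6 CPM in Capn15 KO brains, so that Ttr alone made up most of the summed level.

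Further genes of the epithelium were described by lists, which were chosen with earlier results of these data known. Of 16 genes of water and ion transport, 16 had a log2 fold change below 0 (median -0.09), and 6 were lower at an unadjusted p under 0.05 with 0 higher. Of 17 other choroid plexus epithelial genes, 17 were below 0 (median -0.12), with 9 lower and 0 higher at an unadjusted p under 0.05. Over all genes, 48.6% were below 0, and 2.26% were lower and 2.88% higher at such a p. The same shares apply to the lists that follow. None of the 33 had an FDR under 0.05 by edgeR's quasi-likelihood test or limma-voom, while the likelihood ratio test called Kcne2 and Enpp2 and DESeq2 called Enpp2. Without litter F, 14 of 16 and 17 of 17 were below 0. Kcne2, a subunit of the apical potassium channel, was 7.88 ± 0.952 CPM in WT and 6.21 ± 1.03 CPM in Capn15 KO (SD, n = 7), a log2 fold change of -0.36 (SE 0.0774). Kcnj13, an inward rectifier potassium channel, had a log2 fold change of -0.31 (SE 0.0762) and the sulfate transporter Slc13a4 one of -0.20 (SE 0.0613). Enpp2, the secreted enzyme that makes lysophosphatidic acid, was 120.5 ± 12.9 CPM in WT and 105.5 ± 5.97 CPM in Capn15 KO, lower in 7 of 7 pairs, with a log2 fold change of -0.20 (SE 0.0346, FDR = 0.166 by edgeR). Wdr86 had a log2 fold change of -0.30 (SE 0.0772) and Igfbp2, an IGF binding protein, one of -0.12 (SE 0.0346).

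Lists around the roles of single genes were mixed. Of 9 genes of thyroid hormone, retinol and folate carriage, 6 were below 0, and Rbp4, the blood carrier of retinol that binds transthyretin, was lower in 7 of 7 pairs (1.66 ± 0.586 CPM in WT, 1.08 ± 0.265 CPM in Capn15 KO, SD, n = 7, log2 fold change -0.64, SE 0.132, FDR = 0.259 by edgeR). Stra6, the receptor of that carrier, had a log2 fold change of 0.27 (SE 0.104), and the folate carrier Slc19a1 one of -0.09 (SE 0.0438). Of 10 measured genes of prolactin and klotho signalling, 6 were below 0 and 0 had an unadjusted p under 0.05; the JAK-STAT factor Stat5b was at -0.06 (SE 0.0308), Socs2 at 0.05 (SE 0.0306) and the growth hormone receptor Ghr at -0.06 (SE 0.0445) on the log2 fold change scale. Of 8 measured BMP and Wnt partners of Sostdc1, 5 were below 0, and Lrp5, a Wnt co-receptor, was higher with an unadjusted p of 0.0310 by edgeR and a log2 fold change of 0.11 (SE 0.0458); Lrp4 was at 0.07 (SE 0.0505) and Bmp4 at -0.09 (SE 0.0639). Of 10 measured roof plate and cortical hem genes, which pattern the tissue the choroid plexus comes from, 4 were below 0; Msx1 was at -0.22 (SE 0.0779), Lmx1a at -0.13 (SE 0.0826) and Rspo3 at 0.09 (SE 0.0587). Of 24 genes of multiciliated cells and ependyma, the other cells that use Foxj1, 11 were below 0 (median 0.0065), Tekt1 was at -0.20 (SE 0.0801), Tekt4 at 0.24 (SE 0.0975) and Rfx3 at 0.07 (SE 0.0359), and 7 were below 0 without litter F. None of the genes of these 5 lists had an FDR under 0.05 by edgeR's quasi-likelihood test, DESeq2 or limma-voom, and the likelihood ratio test called Rbp4. Klb, Fgf23, Sost, Gdf7 and Wnt3a were not analysed here.

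**Figure D5:**
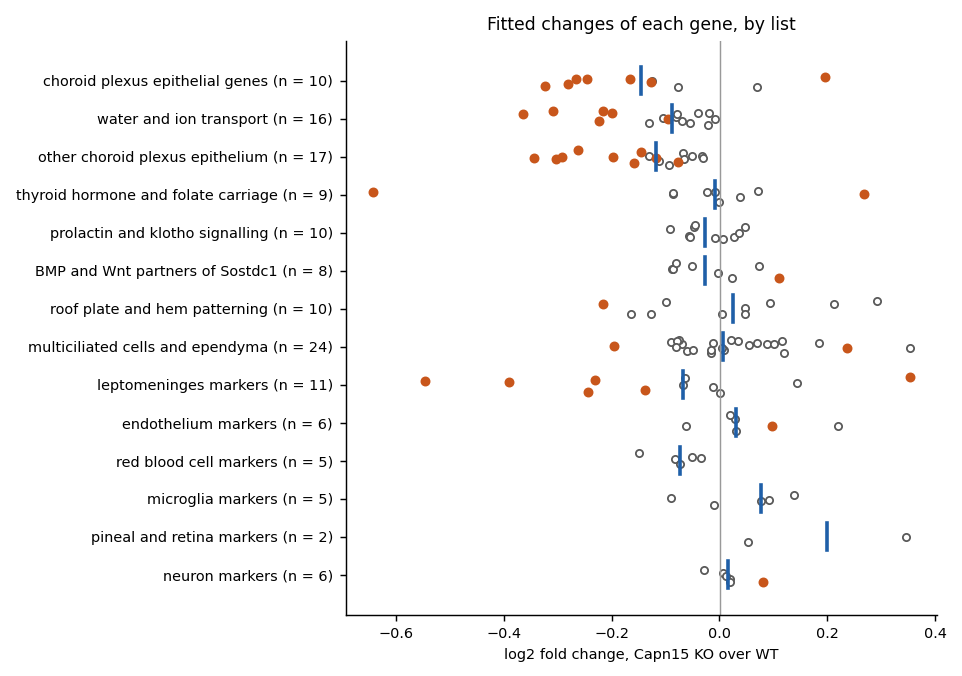
Fitted log2 fold change of each gene, Capn15 KO over WT (horizontal axis), by list (rows, with the number of genes), with orange points at an unadjusted p under 0.05, blue bars for each list's median, and a grey line for the median of all genes. The medians of the upper 3 rows are -0.15, -0.09 and -0.12, and those of the multiciliated, endothelial and neuronal rows are 0.0065, 0.030 and 0.016.

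Markers of other cells of the dissected brain moved to differing degrees. Of 11 markers of leptomeninges, the membranes that lie against the choroid plexus, 8 were below 0 (9 with size factors of DESeq2 or totals alone), 5 were lower and 1 was higher at an unadjusted p under 0.05. Their summed level was 278 to 411 CPM in WT and 310 to 376 CPM in Capn15 KO, and none was at 0 in any library. None had an FDR under 0.05 by edgeR's quasi-likelihood test or limma-voom, while the likelihood ratio test called Fmod and Ogn and DESeq2 called Ogn, and Fmod was called without litter F. Fmod had a log2 fold change of -0.55 (SE 0.106), Ogn -0.39 (SE 0.0735) and Slc6a13, which the choroid plexus also expresses, -0.14 (SE 0.0372). Red blood cell markers summed to 31.0 to 322 CPM in WT and 35.4 to 239.5 CPM in Capn15 KO. In the main fit 5 of 5 were below 0, with Hba-a2 at -0.15 (SE 0.134), Alas2 at -0.08 (SE 0.127) and Hbb-bs at -0.07 (SE 0.130). Across the 25 alternative settings, 0 to 5 of these markers were below 0. Hba-a2 was lower in 4 of 7 pairs, Alas2 in 5 and Hbb-bs in 3. Of 6 endothelial markers 1 was below 0, with Cldn5 at 0.10 (SE 0.0435), Ly6c1 at 0.22 (SE 0.106) and Pecam1 at -0.06 (SE 0.0473), and their sum was 185 to 241 CPM in WT and 196 to 239 CPM in Capn15 KO. Of 5 microglial markers 2 were below 0, with C1qa at 0.14 (SE 0.0698), Cx3cr1 at 0.08 (SE 0.0443) and P2ry12 at -0.09 (SE 0.0613), and a sum of 77.1 to 105.9 CPM in WT and 91.0 to 108.2 CPM in Capn15 KO. Neuronal markers summed to 4835 to 5069 CPM in WT and 4856 to 5126 CPM in Capn15 KO, with 1 of 6 below 0, Dcx at 0.08 (SE 0.0304), Snap25 at -0.03 (SE 0.0290) and Syt1 at 0.02 (SE 0.0314). Otx2 also marks retina and pineal gland, and their measured markers Crx and Tph1 summed to 0.524 to 4.75 CPM in WT and 0.569 to 3.92 CPM in Capn15 KO, with Crx at 0 in 1 library, and log2 fold changes of 0.34 (SE 0.522) and 0.05 (SE 0.260). Aanat, Asmt and Pde6b were not analysed here. The part of these markers in the differences of the 10 genes was not tested.

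Genes with a like profile were sought among 15217 others with a mean of at least 1 CPM. The profile was the mean of the 10 standardised profiles over the 14 brains after genotype means were subtracted. Each of the 10 is part of this mean. Against it, r was 0.97 for Ttr, 0.87 for Clic6, 0.83 for Folr1, 0.70 for Aqp1 and 0.65 for Otx2. It was 0.49 for Calml4, 0.17 for Foxj1, 0.034 for Sostdc1, 0.012 for Prlr and -0.58 for Kl. Among the most alike were Cp (r = 0.89), Prss23 (0.87), Smarca5 (0.86), Ssb (0.86), Ercc8 (0.86), C130013H08Rik (0.85) and Lrrc49 (0.85). The highest, Cp, encodes the copper-carrying ceruloplasmin and had a log2 fold change of -0.17 (SE 0.0585, FDR = 0.779 by edgeR). This is a ranking across brains that share litters.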

How the data were processed

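The authors depleted ribosomal RNA, trimmed reads with Trimmomatic, aligned them to GRCm38 with STAR and deposited raw counts per gene for 17927 genes, with a second table of gene names. The study's methods and the labels name different library kits, instruments and counting tools, and the strand setting, gene annotation and gene filter are not given in the sources used here. If strand was ignored, reads of overlapping genes cannot be told apart. Litter and sex came from the column names, and no column was left unused.

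The software was edgeR 4.0.16, DESeq2 1.42.0 and limma 3.58.1 under R 4.3.3, and pandas 2.3.3, scipy 1.17.1, numpy 2.4.6 and matplotlib 3.10.9 under Python 3.11.15. The test was edgeR's quasi-likelihood test at its default settings with TMM factors, litter, sex and genotype, over all genes with at least 1 count and no further filter. P-values were adjusted by Benjamini-Hochberg over all genes (FDR), with a threshold of 0.05. CPM values use TMM factors and log2 CPM a prior count of 2. Exact tests are two-sided, over 3432 regroupings of brains (smallest p = 0.000583) or sign flips of 7 pairs (smallest p = 0.0156). No 2 libraries of the same genotype were copies, since chi-square per gene between libraries of a group was 5.63 or more. Libraries of different genotype were not compared in this way.

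The genes and the lists were chosen with earlier results of these data known, so their counts are descriptions and were not tested as sets. Named genes are the 10, Capn15, up to 3 per list with the smallest unadjusted p, and the 8 of most like profile, except for items that are not reported here. Positions come from GENCODE M21, which held 17909 of the 17927 genes, and sequences from a RefSeq table of GRCm38.p6, which held 5 of the 10. Alternatives were other tests, normalizations, covariates and filters, a replicate block, and fits without single libraries or litter F. List counts in all settings, correlations of pair differences, and the exact tests, litter tests, correlations and list counts without litter F, the other match in litter B and the 6 litters as units were added after seeing the data.

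Same-numbered libraries come from the same litter by their column names, so the numbers pair the samples by litter, but in litter B, with 2 brains of each genotype, the match within the litter rests on the numbers alone. The deviations of same-numbered libraries from their genotype means correlated between -0.47 and 0.44 (mean 0.12 over 7 pairs, -0.04 between litters, 15227 genes of at least 1 CPM). Total counts were 37620954 to 70910163 per library. A Wilson interval at 95% for Ttr in WT replicate 1 was 806 to 823 CPM, and the floor of 3 counts was 0.0423 to 0.0797 CPM. Both cover counting error only and hold no spread between brains. They treat reads as independent molecules, which PCR reads are not, so the counting error itself may be wider.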

Additional observations from a re-analysis of the deposited data

Results flagged for a closer look

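Among 22 groups of 7 libraries, for the 10 genes and Capn15 in each genotype, 2 held a library far from the others, where chance gives about 1 in 20, or 1.1. Both were Capn15. In the library labelled WT replicate 7 Capn15 was at 4.23 log2 CPM, with the nearest WT library at 4.65, a gap of 0.761 of the range. In the library labelled Capn15 KO replicate 7 it was at 4.34 log2 CPM, with the nearest Capn15 KO library at 3.87, a gap of 0.647 of the range. None of the 10 choroid plexus epithelial genes had such a library.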

How the results depend on the processing

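The quasi-likelihood test called 1 gene in all, not among the 10. It was 34 with the likelihood ratio test, 22 with DESeq2, 0 with library totals alone, 2 with litter but not sex, 7 without litter F, and 0 to 7 when 1 library was left out. With the replicate block in place of litter it called 0 genes, and none of the 10 was called with either. The log2 fold change of Ttr passed the threshold at -0.32 with the likelihood ratio test (FDR = 3.72e-05), -0.32 with DESeq2 (FDR = 0.00949) and -0.27 without litter F (FDR = 0.0486); its FDR under the 11 settings that keep or drop whole terms, tests or litters ran from 3.72e-05 to 1.0. With 1 library left out, it ran from -0.37 to -0.27 with FDR from 0.0320 to 0.290, below 0.05 without WT replicate 7 (0.0421), Capn15 KO replicate 7 (0.0474) or Capn15 KO replicate 3 (0.0320), all by edgeR. Leaving out 1 brain of a litter of 2 removes what that litter says of genotype. Sostdc1 turned to 0.014 without either brain of pair 4, within a range from -0.15 to 0.014. The number of the 10 at an unadjusted p under 0.05, 7 of 10, was 2 with genotype alone and 3 with sex but not litter. That number was 5 with DESeq2, with limma-voom, with the replicate block and without litter F. It was 6 with litter but not sex, and 5 to 7 with 1 library left out. Those lower in 7 of 7 pairs numbered 1, and 4 with litter B matched the other way. The number lower stayed at 7 or 8, and their median between -0.17 and -0.13. Across all 25 settings, 14 to 16 of the 16 water and ion transport genes, 15 to 17 of the 17 other epithelial genes and 7 to 14 of the 24 multiciliated genes were below 0. Without litter F, genes lower at an unadjusted p under 0.05 numbered 2 for hormone, retinol and folate carriage, 0 for multiciliated cells and 1 for red blood cells. Genes below 0 without litter F numbered 7 for multiciliated cells, 1 for microglia and 1 for pineal and retina. The cause was not tested. Counts of 86 to 356 per library for Kl, Calml4 and Prlr limit what can be seen in these genes.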
